A study of Homo sapiens with 6 samples.

Results

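Collagen hydroxylases and lysyl oxidases are the enzymes that modify collagen chains inside the cell and cross-link the fibres outside it. The 10 genes described here are P4HA1, P4HA2 and P4HA3, PLOD1, PLOD2 and PLOD3, and LOX, LOXL1, LOXL2 and LOXL4. They were taken as every probe set that the annotation of the array pairs with 1 of these symbols and no other, which gave 21 of the 54613 probe sets tested, from 10 of 19775 genes. The measurements come from SUM149, a human inflammatory breast cancer line grown with serum, insulin and hydrocortisone. Each group has 3 arrays of RNA from cells given siRNA at 200 nmol/L with oligofectamine. The siControl cells received a non-targeting siGENOME pool and the siTIG1 cells an ON-TARGET Plus pool against TIG1 (RARRES1). All 6 samples are transfected cells of 1 line, and since the pools are of different product lines, an effect of the target and one of the product cannot be told apart. Whether the replicates are separate cultures is not labelled, and a p-value here reflects the spread of these 6 arrays, possibly technical in part.

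Collagen chains are hydroxylated in the endoplasmic reticulum before they fold. Prolyl 4-hydroxylase makes the hydroxyproline that keeps the triple helix stable, lysyl hydroxylases (the PLOD genes) prepare lysines for sugars and cross-links, and secreted lysyl oxidases turn lysines into the aldehydes that tie collagen and elastin together. The hydroxylases need iron, oxygen, 2-oxoglutarate and ascorbate. P4HA1, P4HA2, PLOD2 and LOX are known as genes induced by hypoxia, and PLOD2, LOX and LOXL2 have been studied for their part in the stiff matrix of breast tumours.

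Values are log2 signals as deposited, and a difference of 1 is a 2-fold change of signal. Differences are siTIG1 minus siControl with the SE of limma, and a probe set was called at an adjusted p under 0.05 over all 54613 probe sets. The siRNA target RARRES1 read 11.04, 10.92 and 12.58 on the siControl arrays and 10.72, 10.03 and 9.96 on the siTIG1 arrays with probe set 206391_at, a difference of -1.28 that did not pass (limma adjusted p = 0.20). Its 2 other probe sets differed by -1.24 and -0.83 and did not pass either. The array of siTIG1 replicate 1 was close to siControl replicates 1 and 2 on these, with 11.72 against 11.89 and 11.88 on 206392_s_at and 12.69 against 12.65 and 12.61 on 221872_at. On all 3, siControl replicate 3 lay 1.11 to 1.66 above the other controls, and without it 206391_at and 206392_s_at passed as lower (-0.75 and -0.68, limma adjusted p = 0.024 and 0.043). That array also stood apart over all probe sets: it correlated with the other controls at 0.985 and 0.985, against 0.998 between these 2. On its array the ACTB 3' minus 5' signal, which grows as RNA degrades, was 3.21. The remaining controls had 2.73 and 2.62, and siTIG1 arrays ranged from 2.14 to 2.34. For GAPDH this measure was 0.57 on that array, 0.48 and 0.46 on the remaining controls and 0.46 to 0.47 on siTIG1 arrays. The ACTB values were higher on every control than on any siTIG1 array, and those of GAPDH overlapped between the groups. The part of these measures in the results below was not tested. All 8 epithelial markers had bright signals, with means of 12.31 to 14.43 over the 6 arrays, and 2 of them rose in siTIG1 cells, KRT19 by 1.00 and CDH3 by 0.49 (limma adjusted p = 0.016 and 0.0073). KRT19 was called in 3 of the 6 fits that left out 1 array (adjusted p up to 0.087) and CDH3 in 5 of 6 (up to 0.052). Without siControl replicate 3, 5 of the 8 epithelial markers rose. Among all genes, 3.16% rose with all arrays and 12.2% without that array. In RNA from whole cultures, fewer cells of a kind and less RNA per cell cannot be told apart.

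PLOD1 and 1 of 3 probe sets each of P4HA2 and LOX rose in the siTIG1 group, and LOXL1 fell. In all, 4 of the 21 probe sets were called, 3 higher and 1 lower, or 19.0%, beside 5.01% of all probe sets tested (2.14% higher and 2.87% lower). The groups did not overlap on 9 of the 21, beside 27.8% of all probe sets (14.8% with siTIG1 above and 13.0% with siTIG1 below). The median difference of the 21 was 0.09, and that of all probe sets was 0.01. With 1 probe set per gene, the brightest, 2 of 10 genes rose (P4HA2 and PLOD1) and 1 fell (LOXL1), beside 7.29% of all genes called (3.16% higher and 4.14% lower). All 4 called probe sets were among the 14 whose mean signal lay above 7.89, the median of all probe sets. The other 7 were dimmer, and such signals are not shown to lie above background.

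Without siControl replicate 3 the counts were 5 higher and 3 lower of the 21 probe sets, beside 7.87% higher and 11.0% lower among all probe sets. With 1 probe set per gene they were 4 higher and 2 lower of 10, beside 12.2% and 14.8% of all genes. The probe sets gained were the main one of P4HA1 and of PLOD2 as higher, and the main one of LOXL2 and a secondary one of P4HA2 as lower. Each of the 4 calls made with all arrays was kept without this array. Of these 4, only that of P4HA2 was also kept on leaving out any other single array (limma adjusted p no higher than 0.038). Calls over all 54613 probe sets also became fewer in those fits, at 327 to 1101 in place of 2737 with all arrays. On 8 of the 10 genes siControl replicate 3 lay below the mean of the other controls, by a median over the 10 of -0.42 on the log2 scale. Over the 21 probe sets it lay below on 12, with a median of -0.07. In the other lists described below, it was lower on 11 of 36 collagen pathway genes, 8 of 17 substrates and 14 of 28 hypoxia genes.

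**Figure D1:**
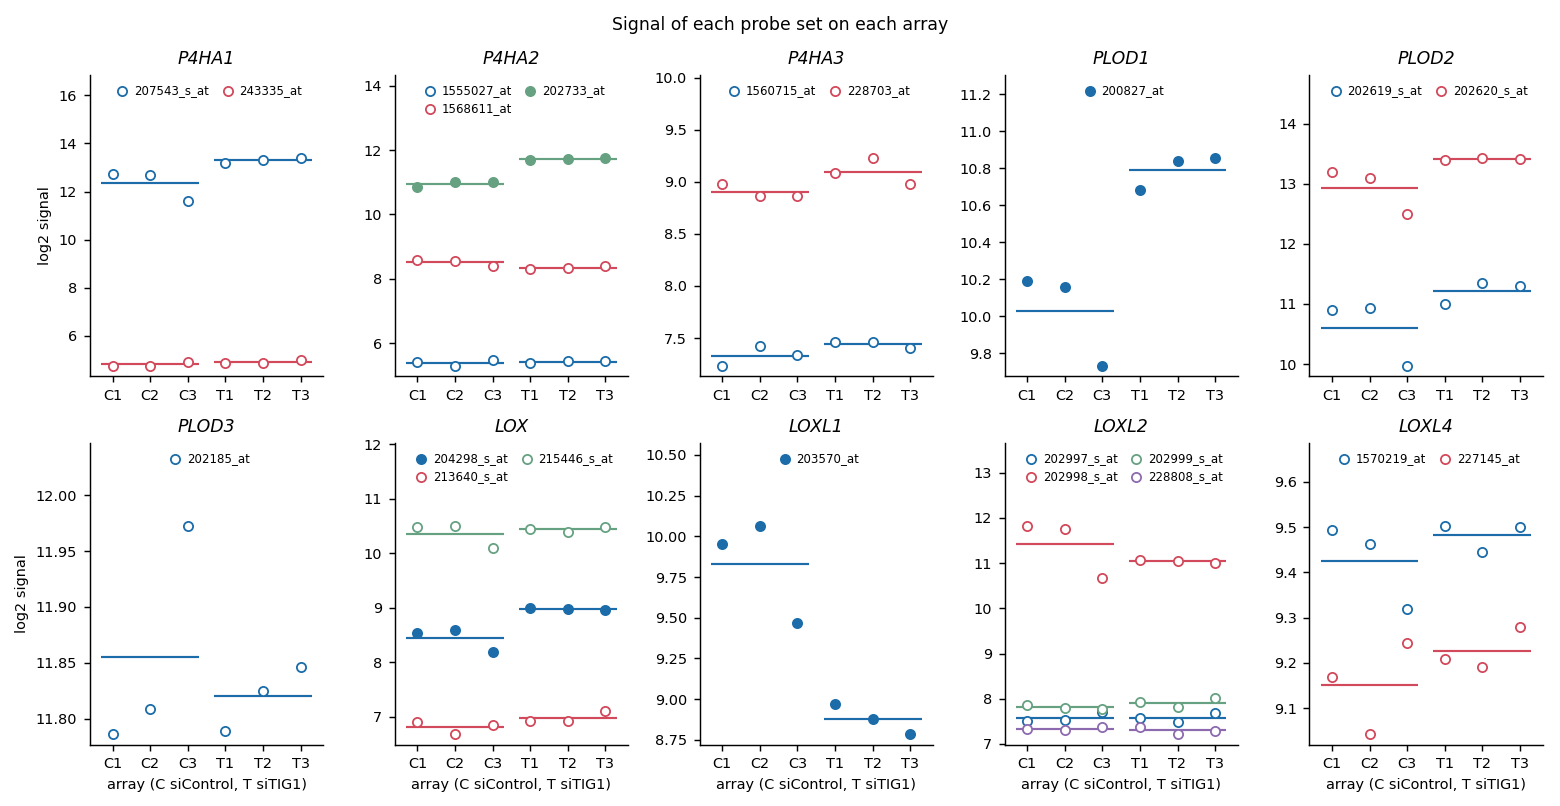
Log2 signal of the 21 probe sets of the 10 genes on each array, 1 panel per gene, with siControl replicates as C1 to C3 and siTIG1 replicates as T1 to T3. Colours are probe sets, lines are group means, filled points mark probe sets called by limma, and each panel has its own vertical scale. The siControl replicate 3 array lies lowest on the bright probe sets of P4HA1, PLOD1, PLOD2, LOX and LOXL2, and the siTIG1 arrays of LOXL1 lie below all control arrays.

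The catalytic alpha subunits of prolyl 4-hydroxylase are encoded by P4HA1, P4HA2 and P4HA3, and each forms a tetramer with the product of P4HB, protein disulfide isomerase. The bases just before the transcription start of P4HA1 (chr10:73096867-73097116, minus strand) and of P4HA2 (chr5:132227092-132227341, minus strand) are shown because both genes are known hypoxia targets. Promoters are those of RefSeq on GRCh38.p14, cut to the 250 bases before the start, and 8 of the 10 genes matched an entry (no entry for P4HA3 and LOXL2). Capitals mark ACGTG or GCGTG on either strand, the cores of hypoxia response elements. ACGTG is also part of the E box CACGTG. A match is only a match of letters, and 43.2% of all 35116 promoters in the table hold at least 1.
P4HA1: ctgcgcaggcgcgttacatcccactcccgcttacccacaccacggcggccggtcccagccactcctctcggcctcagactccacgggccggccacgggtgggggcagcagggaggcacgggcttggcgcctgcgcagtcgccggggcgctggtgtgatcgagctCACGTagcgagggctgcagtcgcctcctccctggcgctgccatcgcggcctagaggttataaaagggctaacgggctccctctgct
P4HA2: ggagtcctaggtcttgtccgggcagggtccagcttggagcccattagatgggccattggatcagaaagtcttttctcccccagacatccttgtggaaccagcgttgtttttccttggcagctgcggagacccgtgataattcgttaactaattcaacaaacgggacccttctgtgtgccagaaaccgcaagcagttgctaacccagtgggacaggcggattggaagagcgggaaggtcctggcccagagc
P4HA1 holds 1 match, ACGTG on the opposite strand at position -86 from the start, and P4HA2 holds none in this window.

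P4HA2 gave the call with the smallest p. Its probe set 202733_at read 10.86, 11.00 and 11.01 on the siControl arrays and 11.68, 11.73 and 11.75 on the siTIG1 arrays. Every siTIG1 array lay at least 0.67 above every control, and siControl replicate 3 was 0.08 above the mean of the other controls. The means were 10.96 ± 0.08 and 11.72 ± 0.04 (SD, n = 3 each), or 1.70-fold higher, and differed by 0.76 ± 0.06 on the log2 scale (SE; limma, adjusted p = 0.0035). The 2 other P4HA2 probe sets were not called with all arrays. Probe set 1568611_at averaged 8.51 in controls and 8.35 in siTIG1 cells, a difference of -0.16 ± 0.07 (SE, limma adjusted p = 0.27) that passed as lower without siControl replicate 3 (-0.22, limma adjusted p = 0.029). Probe set 1555027_at was dim, at 5.40 and 5.43, with a difference of 0.04.

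P4HA1, the main isoform in many cell types, had the largest positive difference of the 10 genes but did not pass with all arrays. Probe set 207543_s_at read 12.73, 12.68 and 11.61 on the siControl arrays and 13.19, 13.31 and 13.39 on the siTIG1 arrays. The groups did not overlap, and siControl replicate 3 lay 1.10 below the mean of the other controls. The groups differed by 0.96 ± 0.29 on the log2 scale (SE; limma, adjusted p = 0.14), or 1.94-fold. Without that array the difference was 0.59 ± 0.07, 1.50-fold (limma adjusted p = 0.00048). Its other probe set, 243335_at, was the dimmest of the 21, at 4.81 in controls and 4.90 in siTIG1 cells.

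P4HA3, the third alpha subunit, was not called. Probe set 228703_at read 8.98, 8.87 and 8.86 on the control arrays and 9.09, 9.23 and 8.98 on the siTIG1 arrays, so the groups were separate by less than the last digit given. The difference was 0.20 ± 0.08 (SE, limma adjusted p = 0.24), and that of the dim probe set 1560715_at was 0.12 ± 0.06 (SE, limma adjusted p = 0.40). The changes of P4HA1 and P4HA2, taken per array on their brightest probe sets, did not differ beyond their spread, with P4HA1 minus P4HA2 at 0.19 ± 0.40 (SE, n = 3 each; exact 2-sided permutation p = 1). Without siControl replicate 3 the value turned to -0.20 (exact permutation p = 0.1, the smallest that 2 against 3 arrays allow).

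Lysyl hydroxylase 1, which acts mainly on helical lysines, is encoded by PLOD1, the telopeptide lysyl hydroxylase by PLOD2, and lysyl hydroxylase 3, which also adds sugars, by PLOD3. Promoters of the first and second of these are shown (chr1:11934467-11934716, plus strand, and chr3:146161185-146161434, minus strand), since both genes had higher signals in siTIG1 cells.
PLOD1: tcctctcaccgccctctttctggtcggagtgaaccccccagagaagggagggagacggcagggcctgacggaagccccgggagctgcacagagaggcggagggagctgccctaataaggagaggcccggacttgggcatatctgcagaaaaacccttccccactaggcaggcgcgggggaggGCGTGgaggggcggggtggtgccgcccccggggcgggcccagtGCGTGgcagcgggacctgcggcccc
PLOD2: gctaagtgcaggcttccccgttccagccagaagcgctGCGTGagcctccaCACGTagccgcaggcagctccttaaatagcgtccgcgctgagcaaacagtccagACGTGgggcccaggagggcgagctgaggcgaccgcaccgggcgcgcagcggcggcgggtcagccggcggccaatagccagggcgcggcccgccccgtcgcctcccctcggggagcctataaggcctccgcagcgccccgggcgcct
PLOD1 holds 2 matches, both GCGTG, at positions -68 and -25, and 19.4% of all promoters hold at least 2. PLOD2 holds 3, at positions -213, -200 and -146, and 7.76% of promoters hold at least 3.

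PLOD1 rose. Its only probe set, 200827_at, read 10.19, 10.16 and 9.73 on the siControl arrays and 10.68, 10.84 and 10.85 on the siTIG1 arrays. All siTIG1 values lay at least 0.49 above all controls. The means were 10.03 ± 0.26 and 10.79 ± 0.10 (SD, n = 3 each), or 1.70-fold higher, and differed by 0.76 ± 0.13 on the log2 scale (SE; limma, adjusted p = 0.027). Leaving out siControl replicate 3 gave 0.62 (limma adjusted p = 0.00033), and leaving out any other single array ended the call (0.054 to 0.14).

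PLOD2 was higher on both of its probe sets without passing. Probe set 202620_s_at read 13.20, 13.09 and 12.50 on the control arrays and 13.39, 13.43 and 13.41 on the siTIG1 arrays, a difference of 0.48 ± 0.17 (SE, limma adjusted p = 0.20). The other, 202619_s_at, read 10.91, 10.94 and 9.97 against 10.99, 11.35 and 11.30, a difference of 0.61 ± 0.27 (SE, limma adjusted p = 0.28). On both the groups did not overlap, and siControl replicate 3 was the lowest array. Without it the differences were 0.26 (limma adjusted p = 0.013) and 0.29 (0.075).

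PLOD3 did not pass, and its groups overlapped. Its probe set 202185_at read 11.79, 11.81 and 11.97 on the control arrays and 11.79, 11.82 and 11.85 on the siTIG1 arrays, with a difference of -0.04 ± 0.07 (SE, limma adjusted p = 0.83). PLOD1 minus PLOD2 changed by 0.29 ± 0.08 and PLOD2 minus PLOD3 by 0.51 ± 0.27 (SE, n = 3 each). Both had an exact 2-sided permutation p = 0.1, the smallest that 3 against 3 arrays allow, or 0.2 after Benjamini-Hochberg adjustment over the 4 pairs compared.

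**Figure D2:**
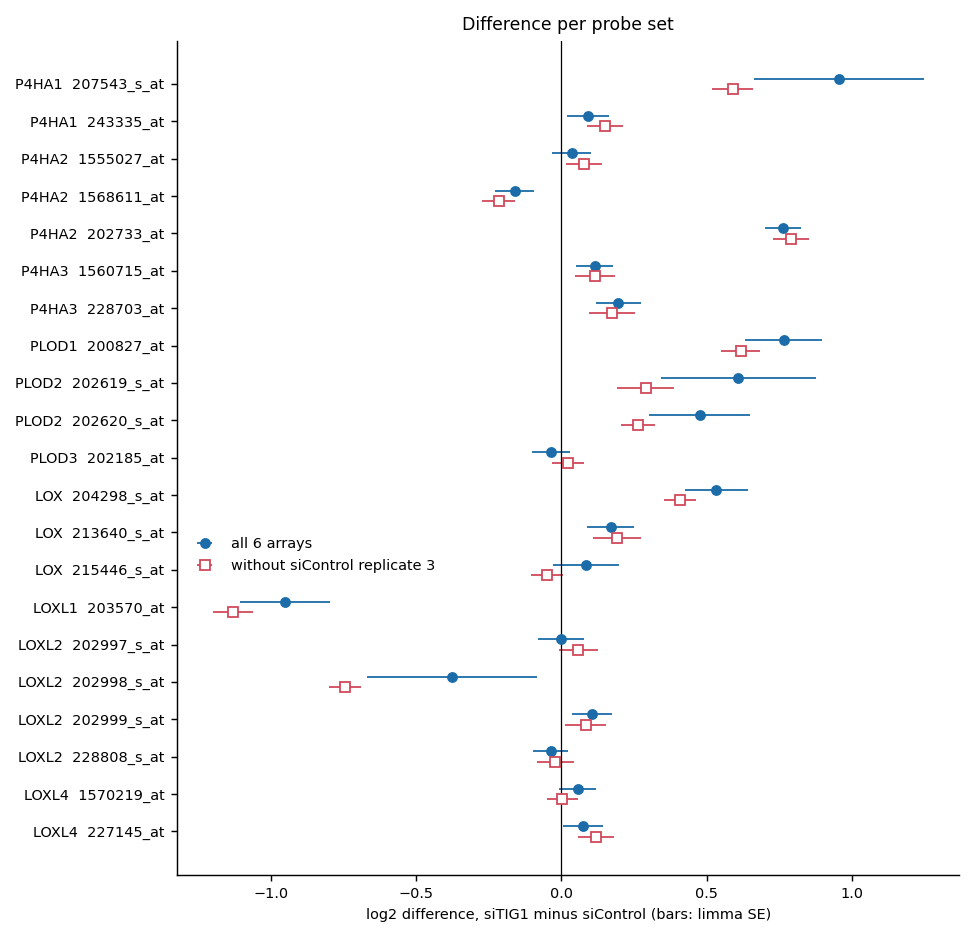
Log2 difference of each of the 21 probe sets, siTIG1 minus siControl, with the SE of limma as bars. Filled circles use all 6 arrays and open squares leave out siControl replicate 3, without which P4HA1 moved from 0.96 to 0.59, LOXL2 (202998_s_at) from -0.38 to -0.74 and P4HA2 (202733_at) from 0.76 to 0.79.

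LOX is the founding lysyl oxidase, LOXL1 is known for its role in elastic fibres, and LOXL2 and LOXL4 carry scavenger receptor domains that LOX and LOXL1 lack. The window before the most upstream of 3 LOX starts in RefSeq (chr5:122078260-122078509, minus strand) and that of LOXL1 (chr15:73926212-73926461, plus strand) are shown. The reason is that LOXL1 was called as lower and 1 of 3 LOX probe sets, not its brightest, as higher.
LOX: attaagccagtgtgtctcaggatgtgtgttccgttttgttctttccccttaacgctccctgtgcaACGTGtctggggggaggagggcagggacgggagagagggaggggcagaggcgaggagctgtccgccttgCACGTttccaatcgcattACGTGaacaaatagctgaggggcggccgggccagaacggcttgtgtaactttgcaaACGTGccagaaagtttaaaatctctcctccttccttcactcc
LOXL1: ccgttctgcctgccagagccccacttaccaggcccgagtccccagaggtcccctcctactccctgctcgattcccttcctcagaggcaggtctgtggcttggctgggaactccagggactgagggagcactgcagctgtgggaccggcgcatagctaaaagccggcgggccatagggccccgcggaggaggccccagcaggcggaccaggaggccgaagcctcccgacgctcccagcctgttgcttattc
The LOX window holds 4 matches, at positions -185, -116, -98 and -42, all of ACGTG. At least 4 are held by 3.22% of all promoters. The windows of the other 2 LOX starts, which overlap and share both matches, hold 2 each, and those of LOXL1, LOXL4 and PLOD3 hold none.

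**Figure D3:**
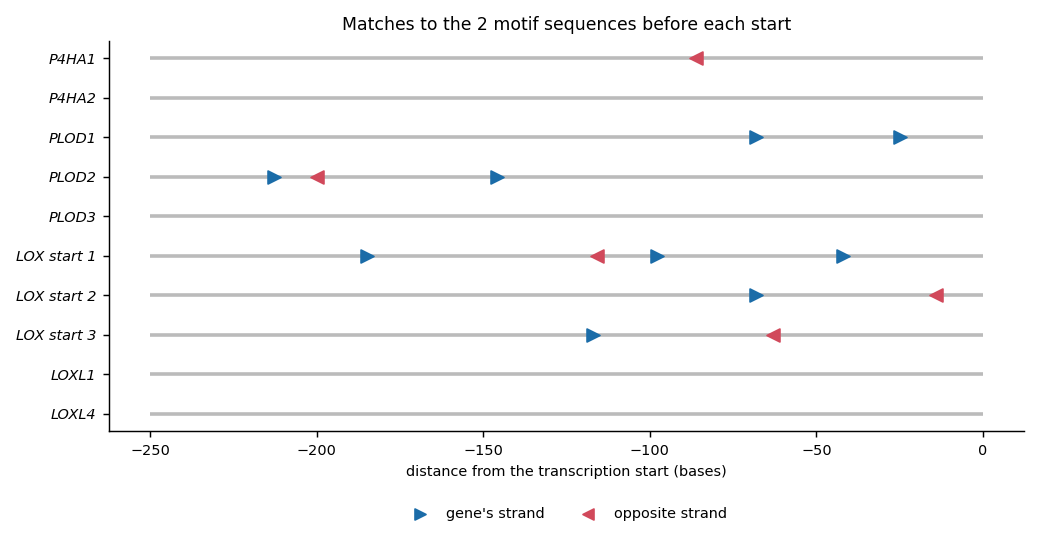
Positions of ACGTG and GCGTG in the 250 bases before each RefSeq start of the 8 genes with an entry, as distance from the start, with right-pointing marks on the strand of the gene and left-pointing marks on the other strand. LOX has 4 matches before its first start, PLOD2 has 3, PLOD1 has 2 and P4HA1 has 1. P4HA2, PLOD3, LOXL1 and LOXL4 have none.

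LOX probe sets disagreed. Probe set 204298_s_at read 8.55, 8.60 and 8.20 on the control arrays and 9.00, 8.98 and 8.97 on the siTIG1 arrays. All siTIG1 arrays lay at least 0.37 above all controls. The difference was 0.53 ± 0.11 (SE), 1.45-fold higher and just past the threshold (limma adjusted p = 0.045). The brightest LOX probe set, 215446_s_at, read 10.49, 10.50 and 10.10 against 10.45, 10.40 and 10.49, with overlapping groups and a difference of 0.09 ± 0.12 (SE, limma adjusted p = 0.75). The dim one, 213640_s_at, differed by 0.17 ± 0.08 (SE, limma adjusted p = 0.33). The call of LOX rests on 1 of 3 probe sets. That call was kept without siControl replicate 3 (0.41, limma adjusted p = 0.00089) and lost without any other single array (0.071 to 0.18).

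LOXL1 was the only one of the 10 genes called as lower. Its single probe set, 203570_at, read 9.95, 10.06 and 9.47 on the siControl arrays and 8.97, 8.88 and 8.78 on the siTIG1 arrays. Every siTIG1 array lay at least 0.50 below every control. The means were 9.83 ± 0.32 and 8.88 ± 0.09 (SD, n = 3 each), or 1.93-fold lower, and siTIG1 minus siControl was -0.95 ± 0.15 on the log2 scale (SE; limma, adjusted p = 0.023). Without siControl replicate 3, the lowest control, the difference grew to -1.13, 2.19-fold lower (limma adjusted p = 2.2e-05). Leaving out any other single array ended the call (0.071 to 0.12).

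LOXL2 passed as lower when siControl replicate 3 was left out and in no fit that kept it with another array left out. Probe set 202998_s_at read 11.81, 11.75 and 10.68 on the siControl arrays and 11.07, 11.04 and 11.01 on the siTIG1 arrays. The siTIG1 arrays lay between siControl replicate 3 and the other controls, and the difference of -0.38 ± 0.29 (SE) did not pass (limma adjusted p = 0.56). Against the other 2 controls alone it was -0.74 ± 0.06, 1.67-fold lower (limma adjusted p = 5.4e-05). The other 3 LOXL2 probe sets were dim, with means of 7.32 to 7.86 over the 6 arrays and differences of -0.04 to 0.11.

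LOXL4 differed by 0.06 ± 0.06 on 1570219_at and by 0.07 ± 0.07 on 227145_at (SE, limma adjusted p = 0.69 and 0.63). LOXL3, the fifth human gene of this family, was measured by 1 probe set and is given to complete it. It read 9.36, 9.51 and 9.02 against 9.06, 8.81 and 8.92, a log2 change of -0.36 ± 0.14 (SE; limma adjusted p = 0.19). Like LOXL1 and LOXL2 it was lower in siTIG1 cells without siControl replicate 3 (-0.50, limma adjusted p = 0.0013). The per-array contrast of LOX with LOXL2 on their brightest probe sets was 0.46 ± 0.24 (SE, n = 3 each; exact 2-sided permutation p = 0.3), and 0.70 without siControl replicate 3 (exact permutation p = 0.1).

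Most other genes of collagen folding, secretion, processing and cross-linking did not pass. Of 36 measured, 2 rose, 1 fell and 33 did not pass, a share of 8.33% called, close to the 7.29% of all genes, with a median difference of 0.02, beside 0.02 for all genes. SERPINH1, the collagen chaperone HSP47, rose by 0.60 ± 0.12 (SE, limma adjusted p = 0.040). TGM2, transglutaminase 2, which cross-links proteins through glutamines, rose by 1.09 ± 0.16 (SE, limma adjusted p = 0.016). SLC23A2, a cellular transporter of ascorbate, the cofactor of the hydroxylases, fell by 0.34 on the log2 scale, with an SE of 0.06 (limma adjusted p = 0.033). P4HB, the common partner of the P4HA subunits, read 13.91 ± 0.12 in controls and 13.97 ± 0.04 in siTIG1 cells (SD, n = 3 each; limma adjusted p = 0.71). Without siControl replicate 3, 11 of the 36 rose and 2 fell, beside 12.2% and 14.8% of all genes. Leaving out any other single array ended the calls of SERPINH1 (0.066 to 0.17) and SLC23A2 (0.098 to 0.15), and that of TGM2 for 4 of the 5 (up to 0.075). Those fits called 217 to 588 of all 19775 genes, in place of 1442 with all arrays.

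Among substrates of these enzymes, COL6A3 had the largest called difference. Of 17 measured collagen chains and other matrix proteins, 2 rose, 2 fell and 13 did not pass, with a median of 0.02, beside 3.16% higher and 4.14% lower among all genes. COL6A1, a chain of collagen VI, rose by 0.67 ± 0.14 and COL5A1 by 0.27 ± 0.06 (SE, limma adjusted p = 0.038 and 0.040). COL6A3, another chain of collagen VI, was lower by -1.44 ± 0.14 and COL7A1, the anchoring fibril collagen, by -0.24 ± 0.05 (SE, limma adjusted p = 0.0052 and 0.042). With quantile normalization 2 substrates rose and 1 fell, and with median centring 1 rose and 2 fell. Without siControl replicate 3, 5 rose and 5 fell, beside 12.2% and 14.8% of all genes. Of the 4 calls made with all arrays, that of COL6A3 was kept with any 1 array left out, and the others were lost without any array other than siControl replicate 3 (0.057 to 0.18). In the fits that lost them, 217 to 588 of all genes were called, in place of 1442.

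Hypoxia genes outside the 10 were called about as often as genes in general. Of 28 measured genes of the hypoxia response, none rose, CA12 and SLC2A1 fell and 26 did not pass, a share of 7.14% called that is close to the 7.29% of all genes (3.16% higher and 4.14% lower). An unadjusted limma p under 0.05 was found for 10 of the 28, beside 4323 of all 19775 genes. CA12, a carbonic anhydrase, was at -0.90 ± 0.07 (SE, limma adjusted p = 0.0030) and the glucose transporter SLC2A1 at -0.60 ± 0.11 (SE, limma adjusted p = 0.027). The list's median was 0.08. ANKRD37, at 0.38 ± 0.09 (SE, limma adjusted p = 0.053), passed with quantile normalization and with dim probe sets left out, and in each of these 1 rose and 2 fell. SLC2A3 had the largest difference of the list, -1.38 ± 0.39 (SE, limma adjusted p = 0.098), on a dim probe set with a mean of 7.44. It passed as lower without siControl replicate 3 (-0.90, limma adjusted p = 1.0e-04). Of the 28 differences with all arrays, 16 were above 0 and 12 below. Without siControl replicate 3, 5 rose and 8 fell, beside 12.2% and 14.8% of all genes. The call of CA12 was kept with any 1 array left out, and that of SLC2A1 was lost without any array other than siControl replicate 3 (0.069 to 0.13). In the fits that lost it, 217 to 588 of all genes were called, in place of 1442.

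Fibroblasts are the main source of several of these enzymes in tissue. Of 9 fibroblast markers, 3 of which are also among the substrates, DCN rose (by 2.17 ± 0.19 SE, limma adjusted p = 0.0038) and 8 did not pass. Of all genes, 3.16% rose. The summed signal of the 9 was 12.02 to 12.22 on the control arrays and 12.63 to 12.80 on the siTIG1 arrays, as log2 of the sum. Apart from DCN and FAP, the markers differed only by -0.08 (PDGFRB) to 0.09 (THY1). Differences of 4 of the 9 lay below 0, so the higher sum is not a rise of the markers as a set. FAP, the brightest of the 9, read 11.13, 11.13 and 10.17 on the control arrays and 11.71, 11.64 and 11.85 on the siTIG1 arrays, with no overlap, a difference of 0.92 ± 0.26 (SE, limma adjusted p = 0.10). With siControl replicate 3 left out, 2 of the 9 rose, DCN and FAP, beside 12.2% of all genes. The rise of FAP in that fit was 0.60 (limma adjusted p = 0.00017). LUM, the dimmest, averaged 5.01 over the 6 arrays. CD14, 1 of 3 leukocyte markers, read 7.67, 7.62 and 8.95 against 8.48, 8.48 and 8.37. With all arrays its groups overlapped and the difference was 0.36 (limma adjusted p = 0.62). It rose by 0.80 without siControl replicate 3 (limma adjusted p = 1.6e-05). PTPRC and CD3E, the other leukocyte markers measured, were not called in either fit. They differed by -0.10 and 0.05 with all arrays, and by -0.08 and 0.08 without siControl replicate 3. The part of these markers in the results was not tested.

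**Figure D4:**
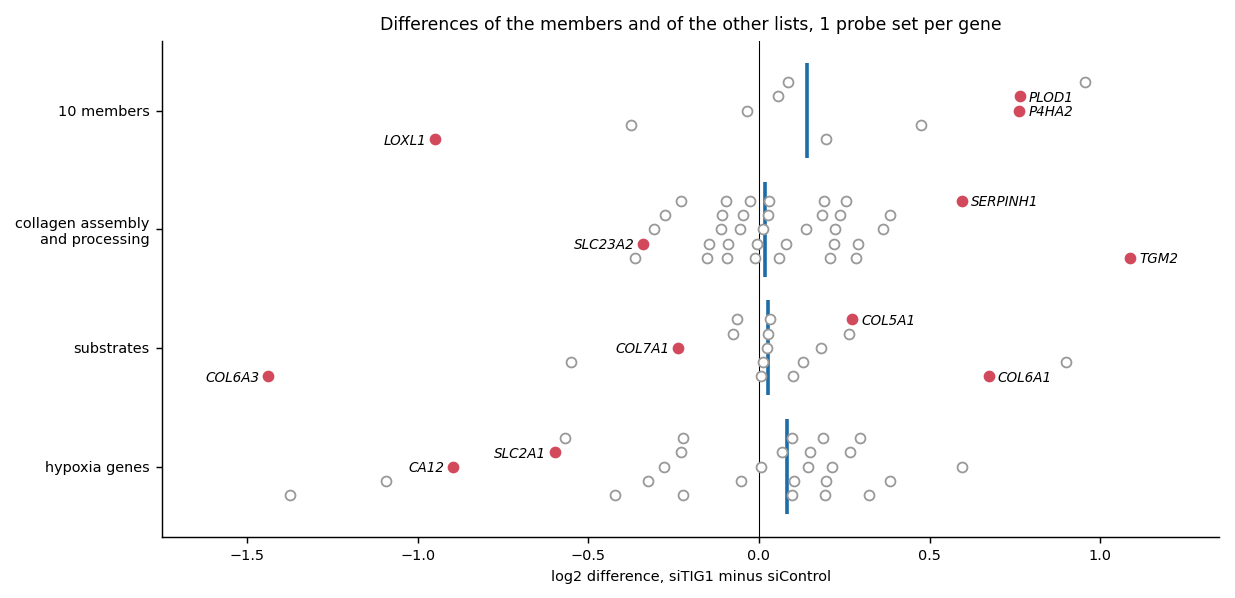
Log2 difference, siTIG1 minus siControl, of 1 probe set per gene for the 10 members, 36 other genes of collagen assembly and processing, 17 substrates and 28 hypoxia genes. Filled points passed limma's threshold and are named, open points did not, blue lines are the medians (0.14, 0.02, 0.02 and 0.08), and the vertical position within a row has no meaning.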

How the data were processed

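Affymetrix HG-U133 Plus arrays were hybridised with biotin-labelled cRNA of SUM149 cells, 3 per group. The deposited values are taken as log2 signals because they run from 4.29 to 15.59. The base is not written in the table. The submitters' processing notes list MAS5 and RMA without saying which of the 2 produced the log2 values that the authors deposited. The medians of the arrays were 7.87 to 7.90, so the values were left as they are, and a common shift of most genes would be hidden. There is no detection call, and the number of arrays limits the precision.

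Of 54675 probe sets 62 controls were left out. Groups came from the sample titles. Symbols were updated by gene number against RefSeq (GRCh38.p14, 19735 of 19775 genes). Tests used lmFit and eBayes of limma 3.58.1 under R 4.3.3, 2-sided, with Benjamini-Hochberg adjustment and a threshold of 0.05, over all 54613 probe sets for the members and over 19775 genes for the lists. A gene's probe set was the one with the highest mean, with x_at sets taken only where no other existed. Fits and permutation tests were tested on simulated data. Named were all members, up to 5 genes past the threshold by p of each list, and RARRES1. Chosen after their values were seen were P4HB, LOXL3, ANKRD37, SLC2A3, FAP, LUM, PDGFRB, THY1, CD14, PTPRC and CD3E. Members and lists were chosen with earlier results of these data known. Of the pathway, substrate and hypoxia lists, COLGALT2, COL17A1 and CA9 had no probe set of 1 symbol and were not analysed here. Of 3 leukocyte, 5 endothelial and 3 hormone receptor and ERBB2 markers none passed by limma with all arrays, and 0 had an unadjusted p under 0.05. Alternatives were quantile normalization, median centring, leaving out probe sets below the median signal, a trended robust eBayes, no x_at sets, averaging all probe sets of a gene, a replicate block and each array left out.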

Additional observations from a re-analysis of the deposited data

How the results depend on the processing

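With quantile normalization, median centring, probe sets below the median signal left out, trended robust eBayes and x_at sets left out, 4 member probe sets and 3 member genes were called each time, the latter also with the mean of probe sets. With 1 array left out the counts were 1 to 8 member probe sets, 1 to 6 member genes, 0 to 13 collagen pathway genes, 1 to 10 substrates and 1 to 13 hypoxia genes, the highest each time without siControl replicate 3. Over all features the same fits called 327 to 10324 of 54613 probe sets and 217 to 5357 of 19775 genes. These counts too were highest without siControl replicate 3. Arrays with the same replicate number did not deviate together from their group means (correlations of -0.04, -0.01 and -0.01). The control means include siControl replicate 3, which stood apart, so this cannot settle whether same-numbered arrays were handled together. The replicate block left 1 member probe set and 1 member gene (both P4HA2, limma adjusted p = 0.034 for its probe set, with 0.088 for PLOD1, 0.093 for LOX and 0.052 for LOXL1). It called 0 pathway genes by limma (10 of 36 at an unadjusted p under 0.05), 1 substrate and 1 hypoxia gene. Over all features it called 478 probe sets in place of 2737 and 245 genes in place of 1442. With the mean of probe sets 1 hypoxia gene was called. Differences that changed sign were those near 0. PLOD3 was at 0.0058 with quantile normalization and ran from -0.070 to 0.023 with 1 array left out. LOXL2 202997_s_at was at -0.018 with quantile normalization and -0.017 with median centring, and ran from -0.049 to 0.059 with 1 array left out. With 1 array left out, P4HA2 1555027_at ran from -0.015 to 0.079, LOX 215446_s_at from -0.048 to 0.15, LOXL2 228808_s_at from -0.079 to 0.0051 and the contrast of P4HA1 with P4HA2 from -0.20 to 0.44. The cause was not tested. Of 245 alternative values of the 21 probe sets, 213 kept both direction and side of the threshold, 18 lost the call, 4 gained it and 10 changed sign. The 18 losses were those of PLOD1, LOX 204298_s_at and LOXL1, each lost in 6 alternatives and kept in 6. The 213 include values of the 17 probe sets not called with all arrays, for which staying uncalled counts as kept. Leaving out dim or x_at sets, the trended eBayes and the replicate block also leave a difference itself unchanged. The fits with 1 array fewer have fewer samples. Signals of the 7 dim probe sets are not shown to lie above background, which limits any change that could be seen on them.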
